A study of Danio rerio with 82 samples.

Results

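Actin filaments are built from monomers encoded by the actin genes, and a set of partner proteins assembles, severs and bundles them. A group of 6 genes of this machinery is described across the growth of the zebrafish (Danio rerio) oocyte: the cytoplasmic actins actb1 and actb2, the cofilin cfl1, the profilin pfn2, the gelsolin relative flii and the filamin partner fam101b. They were picked by symbol because actb1 was lower, and flii and fam101b higher, in stage IV oocytes. All 6 symbols were found, each at 1 locus, among 28405 loci with 27564 distinct symbols. Stage values chose these genes, so their levels and differences are a description and carry no test.

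The study profiled chromatin marks, methylation and transcripts in zebrafish gametes, embryos and muscle, and 4 of its 82 samples are used here, 1 poly(A) RNA library for each of oocyte stages I, II, III and IV. Oocytes came from ovaries of adult females of the untreated Tu wild-type strain. They were sorted by morphology under a microscope, and the surrounding follicle cells were removed as far as possible. The labels call stage I G1-phase, stage II S-phase, stage III prophase I and stage IV metaphase I oocytes, and these phases were not checked. The labels do not state whether several females were pooled. No stage has a replicate, so no p-value or SD can be given, and higher and lower describe these libraries only.

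Profilin binds actin monomers and hands them to formins, which build unbranched filaments, while the Arp2/3 complex builds branched ones. Cofilin severs old filaments and returns monomers to the pool. Flightless I, encoded by flii, belongs to the gelsolin family of severing and capping proteins. The product of fam101b, now named refilin B, binds filamin, a crosslinker of filaments, and is known from mammals to favour filament bundles. In mouse oocytes Formin-2 and Spire proteins build a cytoplasmic actin mesh that moves the meiotic spindle, and in the zebrafish egg actin lies under the cortex and takes part in separating cytoplasm from yolk.

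Levels are given in FPKM, the number of fragments divided by transcript length and library size, and each comes with the authors' lower and upper bound. A locus was counted as higher or lower where its log2(FPKM + 1) values differed by at least 1, which is 2-fold on that scale. The filter of a mean of 1 FPKM left 14109 loci, all 6 genes among them. Their median level was 12.4, 15.2, 13.1 and 5.98 FPKM from stage I to stage IV. Between stage IV and stage I, 19.1% of these loci were higher and 44.4% lower, with a median log2 difference of -0.75. Lower loci made up 70.0% of those counted, and 50.7% after median-of-ratios scaling, which adds 0.87 to log2 ratios of stage IV over stage I. Of 9 oocyte markers that passed the filter, stage IV had 7 lower and 1 higher, dazl, relative to stage I, while figla was listed at 0 throughout.

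The cytoplasmic actins led the 6 genes in stages I to III and lost that place in stage IV. For actb1 (chromosome 1, 7725183 to 7728816, danRer7) the FPKM values from stage I to stage IV were 4725, 1643, 1953 and 219. It was the 4th most abundant locus of the stage I library and the 590th of the stage IV library. For actb2 (chromosome 3, 40520889 to 40524586) they were 2472, 1591, 3087 and 254, and its place was the 12th in stage III and the 487th in stage IV. The bounds reached 3.74% to 5.04% to either side of these values, so for both genes the bounds of stage IV lay below those of every earlier stage. For actb1 the width was 3.87%, 3.89%, 3.88% and 5.04% from stage I to stage IV, widest at the lowest level.

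Before stage IV the actins did not keep step with each other. For actb1 the log2 difference of stage IV from stage I was -4.43, with -4.55 to -4.30 allowed by the bounds, and that of stage IV from stage III was -3.15. For actb2 the same differences were -3.28 (range -3.41 to -3.15) and -3.60. Stage II lay below stage I by a log2 difference of -1.52 for actb1, past the line that 3.15% of all loci crossed downwards, and of -0.64 for actb2. Stage III lay above stage II by 0.25 for actb1 and by 0.96 for actb2, which passed the line at 1.08 under median-of-ratios scaling. Relative to stage I, stage III thus held 0.413 times the level for actb1 and 1.25 times for actb2.

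The ratio of actb1 to actb2 within a library does not depend on library scaling. It was 1.91 (range 1.77 to 2.07) in stage I, 1.03 (0.956 to 1.12) in stage II, 0.633 (0.586 to 0.683) in stage III and 0.863 (0.781 to 0.954) in stage IV. The higher of the pair was actb1 in stage I and actb2 in stages III and IV, and in stage II their bounds overlapped. The coding sequences of the pair are very alike, and the sources used here do not say how the authors divided shared fragments, so each gene's level is less certain than the sum. Together the pair held 0.931%, 0.456%, 0.625% and 0.0693% of the summed FPKM from stage I to stage IV.

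**Figure D1:**
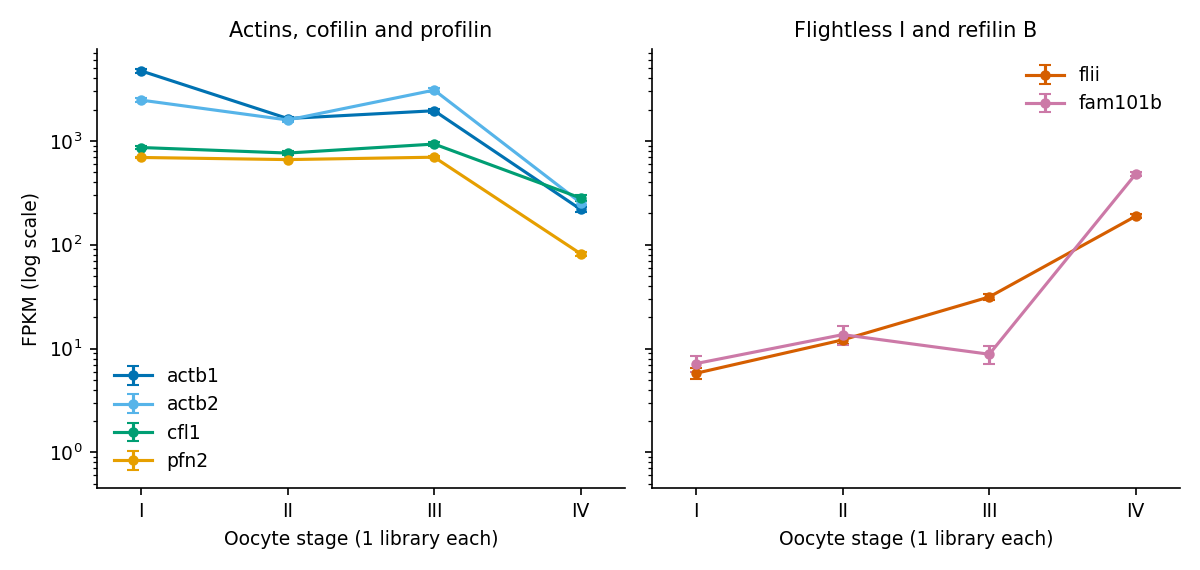
FPKM on a log axis against oocyte stage, 1 library per stage, with the authors' lower and upper bounds as bars. The actins, cfl1 and pfn2 (left) are lowest in stage IV, with actb1 at 219 FPKM, while flii (right) climbs through the stages to 189 FPKM and fam101b stands at 481 FPKM in stage IV after 7.18 to 13.6 FPKM in the earlier ones.

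Cells around the oocyte also express actin genes, and their markers moved in the same comparisons. Of smooth muscle and stroma markers, 8 of the 9 that passed the filter were lower in stage IV than stage I, next to 44.4% of all loci, and all 11 measured summed to 258, 84.6, 283 and 5.03 FPKM over the 4 stages. Blood and macrophage markers were lower for 8 of 10, with sums of 61.8, 36.5, 109 and 5.76 FPKM. Granulosa and theca markers were lower for 8 of 11, with sums of 472, 364, 603 and 211 FPKM. In stage IV foxl2, fshr, lhcgr and star were listed at 0, as were 11242 of all 28405 loci. These markers were already low in stage I, at 2.99, 0.469, 1.08 and 0.715 FPKM, but stood higher in stage III, at 4.36, 4.59, 18.3 and 10.2 FPKM. Most of the granulosa and theca sum of stage IV came from cyp11a1, without which the sums were 248, 226, 397 and 40.5 FPKM.

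Striated muscle markers were lower for 3 of 5 (against 44.4% of all loci), with sums of 24.1, 11.4, 13.1 and 6.20 FPKM. Epithelial markers were lower for 4 of 6 and higher for epcam and cdh1, with sums of 1519, 1019, 883 and 3112 FPKM, or 303, 149, 421 and 333 FPKM without epcam. Nearly all of the stage IV sum came from epcam at 2779 FPKM and cdh1 at 330. The keratins krt18, krt8, krt4 and krt5 had 0.291, 1.83, 0.145 and 0.0740 FPKM there. Which cells gave the epcam and cdh1 transcripts was not tested. Except for the epithelial sum, each of these sums was thus lowest in stage IV, as actb1 and actb2 were. So was the sum of the 10 oocyte markers measured, at 3867, 2990, 2429 and 732 FPKM, or 3794, 2921, 2386 and 301 FPKM without dazl. The part of other cells in the actin values was not tested. Fewer cells of a type and less RNA per cell cannot be told apart in these bulk libraries, nor can fewer transcripts and shorter poly(A) tails after poly(A) selection.

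In stage III the smooth muscle pair acta2 and tagln parted from actb1, and the skeletal muscle actins, at very low levels, did not. The genes acta2, an actin, and tagln, a transgelin, had log2 differences of stage II from stage I of -1.90 and -2.04, next to -1.52 for actb1. Stage III lay above stage II by 1.92 for acta2 and by 1.83 for tagln, and by 0.25 for actb1. For actb2 these steps were -0.64 and then 0.96. Both actb1 and actb2 thus moved in the directions of the smooth muscle pair, but by smaller steps. The keratin gene krt18 moved like the smooth muscle pair, with -1.19 and then 1.17. Their lists did not move as one, and epcam had -0.48 and then -0.91, pdgfra 0.24 and then -0.13. In stage II against stage I, 3 of 9 smooth muscle and stroma and 3 of 6 epithelial markers were lower, next to 3.15% of all loci. In stage III against stage II, 6 of 9 and 4 of 6 were higher, next to 8.67% of all loci. The skeletal muscle actin acta1b had -2.06 and then 0.05, but at only 1.85 FPKM in stage II and 1.96 in stage III. Changes of such low genes look smaller on this scale. Of the 5 striated muscle markers, 0 were higher in stage III than stage II.

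**Figure D2:**
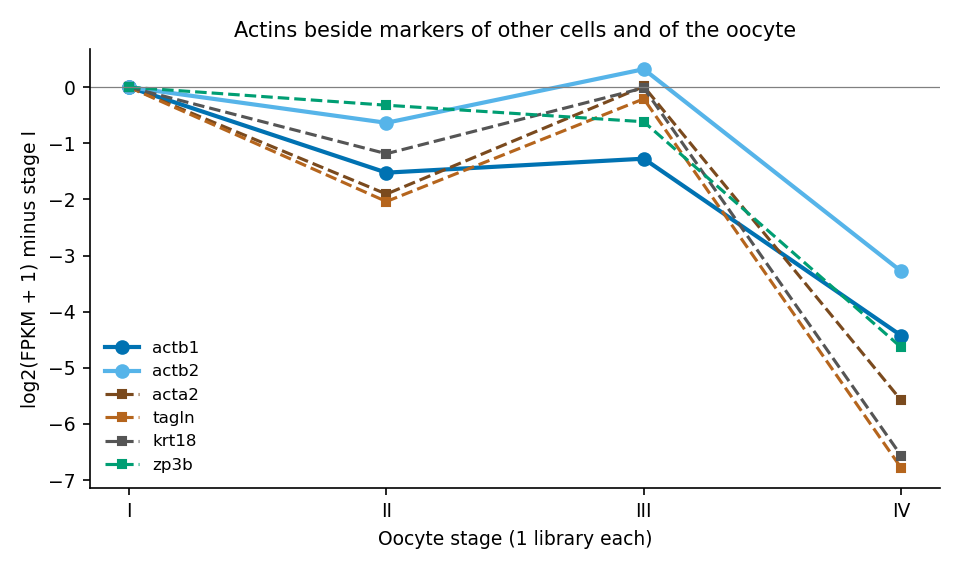
log2(FPKM + 1) relative to stage I for actb1 and actb2 (solid lines) and for the smooth muscle genes acta2 and tagln, the keratin gene krt18 and the egg envelope gene zp3b (dashed), 1 library per stage. In stage III acta2, tagln and krt18 are near their stage I levels, while actb1 differs from its own by -1.27 and actb2 by 0.32. In stage IV all 6 are lower, actb2 by a difference of -3.28 and tagln by -6.78. The plotted markers do not stand for their whole lists. In stage IV against stage I the epithelial markers epcam and cdh1 differed by 1.19 and 3.13 and the oocyte marker dazl by 2.54, and these are not plotted.

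Both cfl1 and pfn2, partners of actin monomers, held their level through stage III. The cofilin gene cfl1 (chromosome 14, 31665188 to 31671184) had FPKM values of 864, 764, 933 and 282 from stage I to stage IV. Stage IV was the low library, and the bounds of stages III and I overlapped. Its log2 difference of stage IV from stage I was -1.61 (range -1.76 to -1.47), the 4197th lowest of 14109. With median-of-ratios scaling it shrank to -0.75, short of the 2-fold line.

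The profilin gene pfn2 (chromosome 22, 38065111 to 38079706), named pfn2b in the current RefSeq table, had values of 693, 661, 697 and 81.8 FPKM. The early libraries lay together, with log2 differences of -0.07 for stage II from stage I and 0.08 for stage III from stage II, and the bounds of stages III and I overlapped. Stage IV lay apart, by -3.07 from stage I (range -3.16 to -2.97) and by -3.08 from stage III. The bounds of pfn2 were the narrowest of the 6 genes in stages I to III, at 1.64% to 1.75%.

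Other profilin and cofilin genes differed among themselves. The profilin gene pfn1 had 574, 308, 553 and 431 FPKM over the 4 stages, and its log2 difference of stage IV from stage I was -0.41, turning to 0.45 with median-of-ratios scaling. The ratio of pfn1 to pfn2 needs no scaling, and was 5.27 (range 4.76 to 5.83) in stage IV against 0.829 (0.776 to 0.884) in stage I. The predominant profilin transcript was thus pfn1 in stage IV and pfn2 in stage I. The profilin gene pfn2l had a difference of -1.60, or -0.74 with that scaling, and the cofilin gene cfl1l one of -2.29.

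Relative to these partners, actin transcripts were fewest in stage IV. The sum of actb1 and actb2 was 5.22, 2.99, 4.07 and 1.23 times the sum of the cofilins cfl1, cfl1l and cfl2 from stage I to stage IV. It was 5.00, 2.83, 3.56 and 0.830 times the sum of the profilins pfn1, pfn2 and pfn2l. For stage IV the bounds allow 1.098 to 1.37 with cofilins and 0.749 to 0.921 with profilins, below what they allow in each earlier stage.

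**Figure D3:**
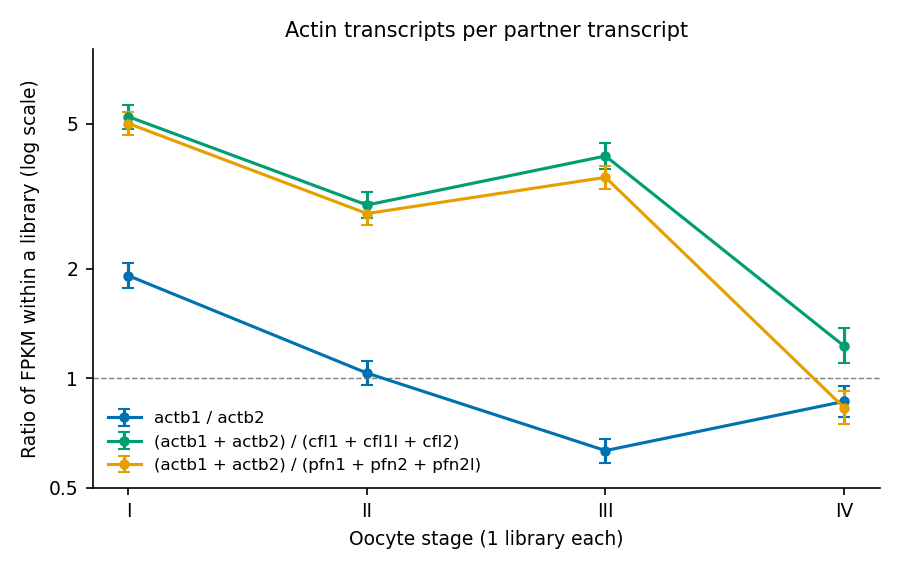
Ratios of FPKM within a library on a log axis against oocyte stage, with bars for the range that the authors' bounds allow. The ratio of actb1 to actb2 is 1.91 in stage I and 0.633 in stage III, and actin transcripts per profilin transcript are 0.830 in stage IV against 5.00 in stage I.

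The gene flii (chromosome 3, 40200813 to 40227397) had a higher value at each successive stage. Its FPKM values were 5.79, 12.13, 31.4 and 189, and the bounds of no pair of stages overlapped. The log2 difference was 0.95 (range 0.69 to 1.21) for stage II from stage I, 1.30 (1.101 to 1.51) for stage III from stage II and 2.55 (2.39 to 2.70) for stage IV from stage III. The earliest step fell short of the 2-fold line as deposited and passed it at 1.05 with a pseudocount of 0.1. For stage IV from stage I the difference was 4.80 (range 4.60 to 5.02), the 5th highest of 14109. Set against actb1 and actb2 together, flii had 0.399 times their FPKM in stage IV and 0.000804 times in stage I. The direction of this contrast follows from how flii and actb1 were chosen.

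The gene fam101b (chromosome 15, 24449580 to 24453227) was low in 3 libraries and abundant in the last. Its FPKM values were 7.18, 13.6, 8.82 and 481, which made it the 193rd most abundant locus in stage IV and the 8743rd in stage I. The early values carried bounds of 18.0% to 20.9% to either side, and those of stages III and I overlapped. The log2 difference was 5.62 (range 5.32 to 5.96) for stage IV from stage III and 5.88 (5.60 to 6.19) for stage IV from stage I, the highest of 14109. So flii and fam101b reached stage IV by different courses: stage III held 5.43 times the stage I level for flii and 1.23 times for fam101b.

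The related gene fam101a, for refilin A, had 0.394, 0.196 and 1.099 FPKM in stages I, II and III and was listed at 0 in stage IV. The filamin genes are the partners of refilins. The gene flna had 160.1, 224, 136 and 44.8 FPKM over the 4 stages, and flnb stayed at or below 0.855. The ratio of fam101b to flna was 10.7 (range 9.40 to 12.3) in stage IV against 0.0448 (0.0350 to 0.0557) in stage I, so that refilin B transcripts outnumbered those of flna in stage IV alone of the 4 libraries.

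No other locus in the files overlaps any of the 6 genes. Between flii and actb2, which lie 293491 bases apart on chromosome 3, there are 9 loci, of which 8 passed the filter. Against stage I, 3 of these were higher in stage IV and 3 lower. The gene top3a, 2672 bases from flii, had 36.3 FPKM in stage IV against 10.9 in stage I, and znf598, on the other side, 2.71 in stage IV against 27.1 in stage I. The gene EXO5, 2005 bases from fam101b, had 22.8 FPKM in stage IV against 2.41 in stage I, and vps53, on the other side, 3.81 in stage IV against 16.9 in stage I. Both genes thus had a neighbour that was higher and a neighbour that was lower.

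Likeness of profile was measured among 8020 other loci that averaged 10 FPKM or more, as the root mean square difference of log2(FPKM + 1) over the 4 stages after centring each profile. The 5 nearest to actb1 differed by 0.0952 to 0.203 and were si:dkeyp-98a7.4, si:ch211-226h8.4, si:ch211-226h8.6, CABZ01117079.1 and si:dkey-188i13.11. In stage IV si:dkeyp-98a7.4 had only 0.226 FPKM (bounds 0 to 0.677) and CABZ01117079.1 only 0.444. Falls to such low levels look smaller on this scale. Of the 5 nearest, si:ch211-226h8.4 was the most abundant, with 2344, 1009, 1154 and 99.3 FPKM over the 4 stages. The gene actb2 came only 373rd, at 0.582, and pfn2 418th, at 0.595.

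The 5 nearest to flii differed by 0.230 to 0.358 and were si:ch211-262h13.3, pik3cg, si:ch211-198p11.6, espl1 and PPP4R1L. The separase gene espl1, whose product cuts cohesin, had 15.1, 27.6, 44.6 and 261 FPKM over the 4 stages. The 5 nearest to fam101b differed by 0.413 to 0.522 and were papd7, runx2b, khsrp, PARD3B (2 of 3) and ACVR2B (1 of 2), with stage IV bounds of 0 to 156 FPKM for runx2b. The RNA-binding protein gene khsrp had 22.1, 18.7, 17.1 and 555 FPKM. From fam101b, flii was the 72nd nearest, at 1.105. These distances rest on 4 values per locus.

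The wider machinery was described with 8 lists of actin genes, holding 224 symbols, of which 167 were measured and 132 passed the filter. In stage IV against stage I, 27 of the 132 (20.5%) were higher and 61 (46.2%) lower, close to the 19.1% and 44.4% of all loci, and their median of -0.69 lay beside -0.75. The 132 include the 6 genes chosen on stage values, with flii and fam101b among the higher and the others among the lower. Without these 6 the median of the remaining 126 was -0.66. Counts of the single lists below include them too. Median-of-ratios scaling gave 45 higher and 41 lower in the lists, next to 31.0% and 31.97% of all loci, so the split had no direction that held under every scaling. In stage IV against stage III, 19 were higher and 71 (53.8%) lower, next to 16.4% and 46% of all loci. There 73.7% of all counted loci were lower, and 51.7% with median-of-ratios scaling. That scaling gave 39 higher and 54 lower in the lists, next to 30.0% and 32.2% of all loci.

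**Figure D4:**
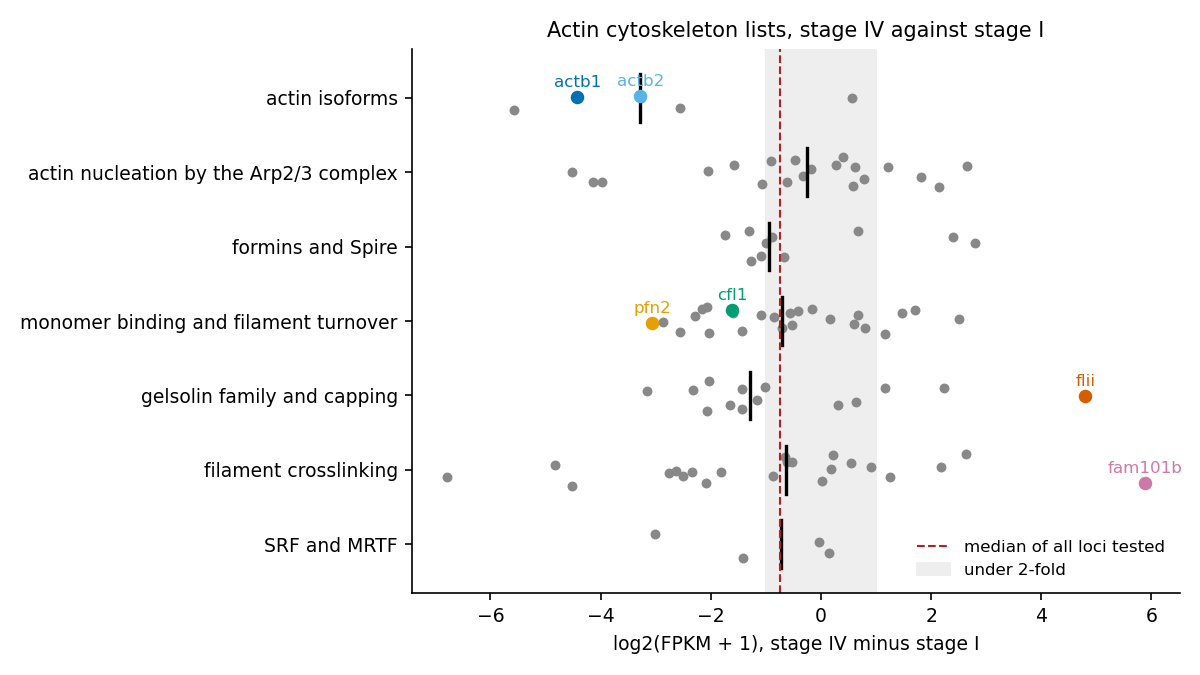
Stage IV minus stage I differences of log2(FPKM + 1) for 101 genes that passed the filter, in 7 of the lists, with a black bar at each list's median and a dashed line at the median of all loci tested (-0.75). The genes flii at 4.80 and fam101b at 5.88, picked because they were higher in stage IV, lie above all other plotted genes. The grey band holds differences under 2-fold.

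Of 6 actin isoforms that passed the filter, 5 were lower in stage IV than stage I, next to 44.4% of all loci. These 5 are actb1 and actb2, which belong to the genes chosen on stage values, and acta2, acta1a and acta1b, already counted above as muscle markers. Without the marker symbols only 2 isoforms are left, both among the chosen genes, so this share is no separate result. The smooth muscle actin acta2 had 80.4, 20.7, 81.1 and 0.703 FPKM over the 4 stages. The cardiac actin actc1b had 2.21, 2.03, 2.66 and 3.72 FPKM and was counted as higher only with median-of-ratios scaling. With 219 and 254 FPKM in stage IV, actb1 and actb2 remained the most abundant actin transcripts measured there.

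The Arp2/3 complex and its activators had 4 genes higher and 6 lower of 20, which is 20.0% and 30.0% next to 19.1% and 44.4% of all loci. With median-of-ratios scaling 9 were higher and 4 lower, next to 31.0% and 31.97% of all loci. The highest pair belonged to the WAVE activator: cyfip1 had 151 FPKM in stage IV against 23.3 in stage I, and wasf2 had 196 in stage IV against 43.7 in stage I. The lowest pair encodes subunits of the complex: arpc4l had 2.12 FPKM in stage IV against 70.6 in stage I, and arpc5lb had 1.46 in stage IV against 42.5 in stage I. Relatives of this pair differed among themselves. The log2 differences were 0.79 for arpc4 and 0.41 for arpc5b, and -0.90 for arpc5a and -1.58 for arpc5la. With 157 FPKM in stage IV against 90.2 in stage I, arpc4 did not share the fall of arpc4l.

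Of formins and Spire genes, 2 were higher and 5 lower of 10, close to the 19.1% and 44.4% of all loci. With median-of-ratios scaling 3 were higher and 2 lower, next to 31.0% and 31.97% of all loci. The formin gene fmn2b had 21.8, 31.6, 42.1 and 158 FPKM over the 4 stages, and spire1a had 11.4, 20.1, 28.6 and 64.6. Both thus had a higher value at each successive stage, as flii did. Their relatives did not: spire2 had 5.05, 3.97, 2.30 and 1.51 FPKM, and fmn2a stayed at or below 0.0533. The formin gene daam1a had 7.88 FPKM in stage IV against 17.8 in stage I, a difference of -1.08 that was -0.29 with median-of-ratios scaling. The formin gene diaph3 had 42.5 FPKM in stage IV against 26.4 in stage I, under the 2-fold line.

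Monomer binding and filament turnover, the list of cfl1 and pfn2, had 4 higher and 11 lower of 25 (16.0% and 44.0%), near the 19.1% and 44.4% of all loci. With median-of-ratios scaling 7 were higher and 8 lower, next to 31.0% and 31.97% of all loci. The thymosin gene tmsb4x, for a protein that sequesters actin monomers, had 507, 354, 1028 and 68.4 FPKM over the 4 stages. The slingshot gene ssh2a, for a phosphatase that activates cofilin, had 160.01 FPKM in stage IV against 27.5 in stage I. The twinfilin gene twf1a, for a monomer-binding protein, had 248 FPKM in stage IV against 75.3 in stage I.

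The gelsolin family and capping list, which holds flii, had 3 higher and 9 lower of 14 (21.4% and 64.3%, next to 19.1% and 44.4% of all loci). With median-of-ratios scaling 5 were higher and 4 lower, next to 31.0% and 31.97% of all loci. The other gelsolin relatives that passed the filter, gsna, gsnb, scin, scinlb, capgb, svila and svilb, had log2 differences of -1.01 to -2.33, and of -0.42 to -1.70 with median-of-ratios scaling. None of them therefore lay on the side of flii. The lowest of the list was capza1b, a capping protein subunit, with 5.09 FPKM in stage IV against 53.6 in stage I. The adducin gene add1, for a protein that caps filaments and ties them to spectrin, had 165 FPKM in stage IV against 34.3 in stage I.

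Filament crosslinking, the list of fam101b, had 4 higher and 9 lower of 22 (18.2% and 40.9%), near the 19.1% and 44.4% of all loci. With median-of-ratios scaling 7 were higher and 8 lower, next to 31.0% and 31.97% of all loci. The tropomyosin gene tpm4b had 53.6 FPKM in stage IV against 7.79 in stage I. The transgelin genes tagln and tagln2 had 0.192 and 0.498 FPKM in stage IV against 130.3 and 41.6 in stage I.

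Serum response factor and its MRTF cofactors, which drive actin genes in many cells, had 0 higher and 2 lower of 4, a share near the 44.4% lower among all loci. The counts were the same with median-of-ratios scaling, where 31.0% of all loci were higher and 31.97% lower. Among them mkl1b, an MRTF gene, had 0.975 FPKM in stage IV against 14.8 in stage I.

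In stage III against stage II the lists leaned the other way, and so did markers of some other cells. Of the 132 genes, 25 (18.9%) were higher and 6 (4.55%) lower, next to 8.67% and 7.5% of all loci. Of all counted loci 46.4% were lower, against 34.5% with median-of-ratios scaling and 57.4% when scaled without mitochondrially encoded genes. These scalings gave 28 and 25 higher in the lists, next to 9.43% and 7.67% of all loci. In the same step 6 of 9 smooth muscle and stroma markers, 7 of 10 blood and macrophage markers and 4 of 6 epithelial markers were higher. Of 11 granulosa and theca markers 4 were higher and 1 lower, and of 5 striated muscle markers 0 were higher. Some of the higher genes passed the filter only through their stage III value. Among the markers these were lhcgr, with 0.269 FPKM in stage II and 18.3 in stage III, and star, with 0.659 and 10.2. In the actin lists coro2ba, with 0.480 and 4.76, is an example. Such genes were counted because they were high in stage III, and the filter was the same for all loci. A set of 11 symbols stands in both kinds of list, and without them 20 of 123 actin genes (16.3%) were higher. The Arp2/3 subunit gene arpc1b, singled out after its values were seen, had 89.4 FPKM in stage III against 12.8 in stage II.

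In stage II against stage I, 5 of the 132 were higher and 12 (9.09%) lower, next to 2.67% and 3.15% of all loci. Without the shared symbols 7 of 123 (5.69%) were lower. This step turned with the scaling: 54.1% of all counted loci were lower, against 73.9% with median-of-ratios scaling and 31.7% when scaled without mitochondrially encoded genes. In the lists these scalings gave 14 and 7 lower of 132, next to 4.06% and 2.36% of all loci. They gave 3 and 10 higher, next to 1.43% and 5.09% of all loci. As deposited, lower in stage II than stage I were 3 of 9 smooth muscle and stroma markers, 3 of 6 epithelial, 2 of 5 striated muscle, 2 of 10 blood and macrophage and 1 of 11 granulosa and theca markers. Of the 6 genes, actb1 alone passed the line downwards.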

How the data were processed

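The authors deposited 1 table per oocyte library, holding FPKM for each locus with its bounds and status, per the file headers. The submitters' processing notes list the build danRer7 and, without roles, Bismark, Bowtie2 2.2.2, STAR 2.5.3a and Trim Galore. The sources used here do not name the program that made the FPKM values, what its bounds cover, or whether it used the strand that the dUTP step of the labels' protocols keeps. Depth is not stated either. If the bounds were 2 SDs of a Poisson count, 6201820 to 6606980 fragments per library would correspond to them. On that reading actb1 would have 2670.05 fragments in stage I and 2649.9 in stage II, at 4725 and 1643 FPKM. Such near-equal counts do not match these unlike levels, so the bounds are not read as counts and no depth is taken from them.

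Python 3.11.15 with numpy 2.4.6 and pandas 2.3.3 joined the tables on symbol and locus, with 1 added to each start. Differences of log2(FPKM + 1) were computed, a scale on which changes of low genes look smaller, for loci that averaged 1 FPKM or more. With 1 library per stage no test exists. Ranges set the lower bound of one level against the upper bound of the other. The script was tested on simulated data. Where a symbol has several loci, the one with the highest mean was used in the lists. Named are the 6 genes, the 2 highest and 2 lowest of each list in stage IV against stage I with a mean of at least 10 FPKM, the 5 nearest profiles to actb1, flii and fam101b, and some relatives, neighbours and markers taken up after their values were seen. The separate result of 1 of the 8 lists is not reported here. The 6 genes and the lists were chosen with earlier results of these data known. All 6 symbols matched the RefSeq gene table (GRCz12tu), cfl1 also as a synonym of cfl1l, and its coordinates were not used.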

Additional observations from a re-analysis of the deposited data

How the results depend on the processing

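Of 126 recomputed differences of the 6 genes over the 4 comparisons, 119 kept their direction and their side of the 2-fold line. The 126 include sums over all loci of a symbol, which could not differ because each of the 6 symbols has 1 locus. They also include stage IV against stage II, which is another comparison and not another setting. The 119 is therefore no measure of how stable the differences are. With median-of-ratios scaling the log2 differences of stage IV from stage I were -3.56 for actb1, -2.42 for actb2, 5.64 for flii, 6.72 for fam101b, -2.21 for pfn2 and -0.75 for cfl1, which lost its call, as it did against stage III at -0.81. Scaled to the FPKM sum without the 13 mitochondrially encoded genes they were -4.14 for actb1, -2.99 for actb2, 5.07 for flii, -1.33 for cfl1 and -2.78 for pfn2. A pseudocount of 5 gave 4.17 for flii and 5.32 for fam101b. With stage II in place of stage I, chosen after seeing the data, they were -2.90 for actb1, -2.64 for actb2, 3.85 for flii, 5.04 for fam101b and -1.44 for cfl1. Over all loci, 6260 were lower and 2689 higher in stage IV than stage I, against 3873 lower with a pseudocount of 5, 3368 lower at a mean of at least 10 FPKM, where fewer loci are counted, and 4378 higher with median-of-ratios scaling. Against stage III, 6484 were lower and 2316 higher, and these alternatives gave 4096 lower, 3414 lower and 4233 higher. These shifts follow from the settings. Median-of-ratios scaling adds 0.87 to log2 ratios of stage IV over stage I and 0.92 to those over stage III. A pseudocount of 5 shrinks the differences of low loci. Of the actin lists 45 genes were higher with median-of-ratios scaling. Chosen after seeing the data as well, counting symbols in capitals gave 31 higher and 62 lower of 145, and leaving out symbols of the marker lists 27 higher and 54 lower of 123. No paired analysis was possible because each stage has 1 library, and none could be left out. The bounds of fam101b in stages I to III are the widest of the 6 genes.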

Other observations

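The 6th nearest profile to actb1, singled out after its values were seen, was gapdh (chromosome 16, 19254364 to 19261820), a glycolysis gene that serves with beta-actin as a common reference in expression assays. Its FPKM values from stage I to stage IV were 4380, 1436, 1676 and 268, at a root mean square difference of 0.205 from actb1. Both genes were highest in stage I and lowest in stage IV. A list of 12 genes often used as such references was then drawn up, also after seeing the data. Of these, 11 passed the filter of a mean of 1 FPKM, and tuba1c did not. In stage IV against stage I, 7 of the 11 were lower by the 2-fold rule, 1 was higher and 3 lay between, next to 44.4% lower and 19.1% higher among all loci. These counts hold for the values as deposited. Median-of-ratios scaling adds 0.87 to log2 ratios of stage IV over stage I and left 31.97% of all loci lower. It was not applied to this list, so how many of the 11 would stay lower is not given. Of the 7, eef1a1l1, sdha and tuba1b had differences of -1.33, -1.64 and -1.70 as deposited. A shift of 0.87 would bring these inside the 2-fold line. The 7 also include gapdh, whose profile prompted the list. The share of 7 in 11 is therefore not read as a fall of reference genes. The translation elongation factor gene eef1a1l1 had 718 FPKM in stage IV against 1808 in stage I, rpl13a had 358 in stage IV against 2105 in stage I, and hprt1, the higher one, had 194 in stage IV against 35.2 in stage I. The TATA-binding protein gene tbp had 112, 123, 56.1 and 118 FPKM over the 4 stages. Its log2 difference as deposited was 0.07 for stage IV from stage I, where the bounds overlapped, and 1.06 for stage IV from stage III. That small difference also depends on the scaling.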
